A study of Mus musculus with 14 samples.

Results

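The genes examined here encode the machinery that writes and reads methylation of histone H3 at lysine 9 (H3K9). They were chosen by name, with earlier results of these data known. They comprise 6 H3K9 methyltransferases (Suv39h1, Suv39h2, Setdb1, Setdb2, Ehmt1 and Ehmt2), 3 HP1 proteins (Cbx1, Cbx3 and Cbx5) and 1 co-repressor (Trim28). All 10 were found among the 55424 genes that the count files list. mRNA was counted in 14 libraries from mouse small-intestinal tumor organoids, named APT organoids in the labels, which do not spell out that name. Hairpin 1 organoids (3 libraries) carried a doxycycline-inducible short hairpin RNA against exon 4 of Suv4-20h2, listed as Kmt5c, and control 1 organoids (3 libraries) a control hairpin titled shCtrl. Hairpin 2 organoids (4 libraries) carried a hairpin against exon 9, and control 2 organoids (4 libraries) again the control hairpin. Every group, controls included, had received 0.5 µg/ml doxycycline for 4 days, and each hairpin is labelled as 1 clone. Hairpin 1 with control 1 is called set 1, and hairpin 2 with control 2 set 2. Set cannot be told apart from hairpin, so no level of one set was tested against the other.

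Methylated H3K9 marks compact, silenced chromatin. SUV39H enzymes place the trimethyl mark at pericentromeric repeats, the EHMT enzymes place mono- and dimethyl marks at silenced genes, and SETDB1 is brought to retroelements and imprinted genes by TRIM28, which binds KRAB zinc finger proteins. HP1 proteins bind the methylated tail through a chromodomain, and in mouse heterochromatin they recruit Suv4-20h enzymes, which methylate histone H4 at lysine 20 (H4K20). The comparisons therefore ask whether mRNA of this upstream machinery differed once a hairpin against a downstream enzyme had been induced.

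Library totals lay between 9272134 counts, in hairpin 2 replicate 3, and 26284079, in control 2 replicate 3. The targeted gene, Kmt5c, was lower in every hairpin library than in any control library of its set, but it did not pass the threshold. It had 53.6, 64.3 and 56.1 CPM (counts scaled to the same TMM-adjusted library total) in hairpin 1, against 72.3, 75.8 and 67.3 CPM in control 1. In set 2 it had 114, 111, 99.3 and 106 CPM in hairpin 2, against 129, 121, 116 and 128 CPM in control 2. The hairpin 1 log2 fold change was -0.31, with an edgeR adjusted p of 0.80. That of hairpin 2 was -0.20, with an adjusted p of 0.098, or 0.0074 once replicate number was added to the fit as a block. Summed markers were 4393 to 6943 CPM for epithelium, 5.78 to 55.0 CPM for immune cells, 1.89 to 15.8 CPM for fibroblasts and 0.251 to 49.9 CPM for endothelium, and Ptprc, the pan-leukocyte gene, stayed at or below 0.877 CPM in every library. Both upper ends for immune and endothelial markers came from hairpin 1 replicate 1, in which Cd68 had 53.9 CPM and Cdh5 49.6 CPM. The labels do not state that replicates came from different cultures, and the p-values reflect library-to-library spread that could be technical.

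No H3K9 methyltransferase, HP1 gene or Trim28 passed the threshold with either hairpin. The threshold was an adjusted p under 0.05 in edgeR's quasi-likelihood test, adjusted over all genes tested. With hairpin 1, 0 of 10 were called against a background of 0 of 13540 genes (0%), and at an unadjusted p under 0.05 there was 1 of 10, against 733 of all genes. With hairpin 2, 0 of 10 were called against a background of 854 of 14126 genes (6.05%), and 0 of 10 had an unadjusted p under 0.05, against 2793 of all genes. The DESeq2 Wald test and limma voom with library quality weights also called 0 of the 10 with either hairpin. Median log2 fold changes over the 10 were 0.04 for hairpin 1, beside 0.03 over all genes, and 0.03 for hairpin 2, beside 0.00 over all genes. Hairpin and control libraries did not overlap for 1 of the 10 in set 1, where 12.8% of all genes did not overlap, and for 0 of the 10 in set 2, where 15.3% did not. The plot of CPM by library shows each value, and the plot of fold changes shows how far each interval reached.

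**Figure D1:**
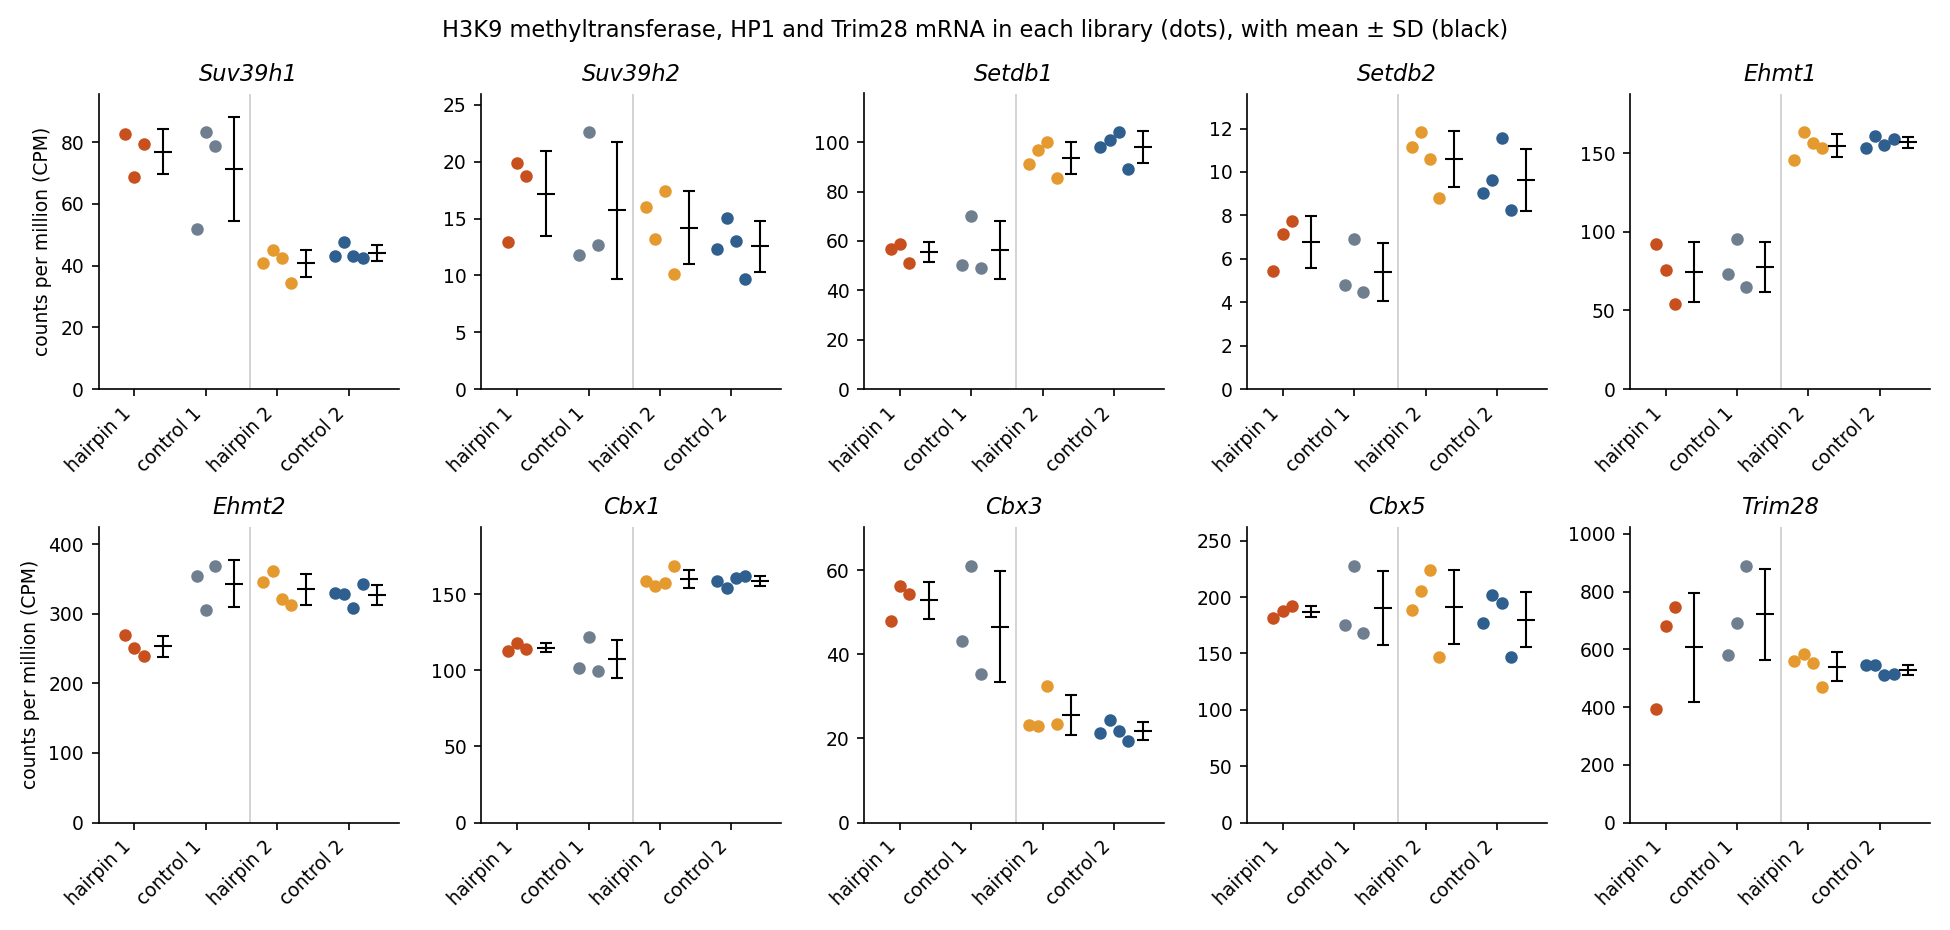
CPM (y axis, from 0) of the 10 genes in each library, by group (x axis, each hairpin left of its control), with mean ± SD in black (n = 3 a group in set 1 and 4 in set 2). Hairpin and control dots overlap in every panel and set except Ehmt2 in set 1, where hairpin 1 (239 to 269.6 CPM) lies under control 1 (305 to 369.6 CPM).

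Suv39h1 and Suv39h2 encode the pair of enzymes that trimethylate H3K9 near centromeres. Suv39h1 (ENSMUSG00000039231, GRCm38 chromosome X, 8061171 to 8074760, minus strand) had 82.7, 68.8 and 79.2 CPM in hairpin 1, against 51.9, 83.2 and 78.6 CPM in control 1. The groups overlapped, since only control 1 replicate 1 lay below the hairpin libraries, and the log2 fold change was 0.11 (SE 0.229, adjusted p = 0.93). In set 2 it had 41.0, 44.9, 42.5 and 34.5 CPM in hairpin 2, against 43.1, 47.8, 43.1 and 42.3 CPM in control 2. Replicate 4 was the lowest library of hairpin 2, and the log2 fold change was -0.11 (SE 0.086, adjusted p = 0.54).

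Suv39h2 (ENSMUSG00000026646, chromosome 2, 3455815 to 3475031, minus strand) was at a lower level. It had 12.9, 19.9 and 18.7 CPM in hairpin 1, against 11.8, 22.6 and 12.7 CPM in control 1, which overlapped, and the log2 fold change was 0.13 (SE 0.347, adjusted p = 0.95). In set 2 it had 16.0, 13.2, 17.4 and 10.1 CPM in hairpin 2, against 12.4, 15.1, 13.1 and 9.67 CPM in control 2. Replicate 4 was lowest in both groups, and the log2 fold change was 0.18 (SE 0.178, adjusted p = 0.65). Of the exon bases of Suv39h1, 14.6% lie opposite Gm14820, and of those of Suv39h2, 9.98% lie opposite Dclre1c and Gm13184. The kit kept strand, but the strand setting of the counting is not given in the sources used here, so reads of those partners cannot be told apart from reads of the 2 genes.

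Setdb1 encodes the H3K9 methyltransferase of the TRIM28 pathway, and Setdb2 a relative that is less studied. Setdb1 (ENSMUSG00000015697, chromosome 3, 95323525 to 95357202, minus strand) had 56.7, 58.9 and 51.2 CPM in hairpin 1, against 50.2, 69.9 and 49.1 CPM in control 1, and 91.2, 97.0, 100.2 and 85.4 CPM in hairpin 2, against 98.1, 101, 104 and 89.3 CPM in control 2. Groups overlapped in both sets, with log2 fold changes of -0.02 (SE 0.212, adjusted p = 0.98) for hairpin 1 and -0.07 (SE 0.069, adjusted p = 0.65) for hairpin 2. The interval was -0.52 to 0.48 for hairpin 1 and -0.22 to 0.08 for hairpin 2. Setdb1 shares 7.96% of its 50-base transcript words with 16 other genes, mostly with Gm4349, so part of its count is uncertain. Of its exon bases, 4.73% lie opposite Cers2 and Gm37500, with the same limit on strand as for the SUV39H genes.

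Setdb2 (ENSMUSG00000071350, chromosome 14, 59402009 to 59440884, minus strand) was the least abundant of the 10. It had 5.44, 7.13 and 7.74 CPM in hairpin 1, against 4.77, 6.91 and 4.45 CPM in control 1, and 11.1, 11.8, 10.6 and 8.80 CPM in hairpin 2, against 9.04, 9.62, 11.6 and 8.26 CPM in control 2. Groups overlapped in both sets. Its log2 fold changes were 0.33 (SE 0.351, adjusted p = 0.86) and 0.15 (SE 0.133, adjusted p = 0.61), and its hairpin 1 interval reached a 2.23-fold higher level, the widest upper bound among the 10. In hairpin 1 replicate 1 genes of chromosome 14 had a median log2 level 0.69 below that of control 1, against 0.07 and 0.08 above it in the other 2 hairpin libraries. Setdb2 was lowest in that library among hairpin 1, and its log2 fold change without it was 0.47 (adjusted p = 0.53). The part of the chromosome-wide shift in the Setdb2 value was not tested.

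Ehmt1 and Ehmt2 encode GLP and G9a, which act as a heterodimer. Ehmt2 (ENSMUSG00000013787, chromosome 17, 34898469 to 34914052, plus strand) was the 1 gene of the 10 whose groups did not overlap. It had 269.6, 251 and 239 CPM in hairpin 1, against 355, 305 and 369.6 CPM in control 1. Every hairpin library lay under every control library, with a log2 fold change of -0.44 (SE 0.175, 95% interval -0.85 to -0.03), an unadjusted p of 0.0395 and an adjusted p of 0.80. It therefore failed the correction over 13540 genes. Leaving out each library in turn gave -0.52 to -0.36. In set 2, Ehmt2 had 346, 362, 321 and 314 CPM in hairpin 2, against 330.0, 328, 308 and 343 CPM in control 2. These groups overlapped, with a log2 fold change of 0.04 (SE 0.062, 95% interval -0.10 to 0.18, adjusted p = 0.81).

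Ehmt1 (ENSMUSG00000036893, chromosome 2, 24789928 to 24919614, minus strand) did not show the pattern of Ehmt2 in set 1. It had 92.3, 76.0 and 54.2 CPM in hairpin 1, against 73.1, 95.5 and 64.7 CPM in control 1, and 146, 163, 156 and 153 CPM in hairpin 2, against 153, 161, 155 and 159 CPM in control 2. Both pairs overlapped, with log2 fold changes of -0.07 (SE 0.259, adjusted p = 0.96) and -0.02 (SE 0.052, adjusted p = 0.87). Ehmt1 made up 16.4 ± 2.81% of the summed Ehmt1 and Ehmt2 level per kb of exon in hairpin 1 and 13.4 ± 3.59% in control 1 (SD, n = 3 each). In set 2 this share was 23.8 ± 1.27% in hairpin 2 and 24.5 ± 0.743% in control 2 (SD, n = 4 each), with overlapping ranges in both sets.

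The HP1 genes Cbx1 (HP1 beta), Cbx3 (HP1 gamma) and Cbx5 (HP1 alpha) encode the chromodomain readers of the mark. Cbx1 (ENSMUSG00000018666, chromosome 11, 96789127 to 96808640, plus strand) had the smallest coefficient of variation of the 10 in every group but control 1, where that of Ehmt2 was smaller. It had 113, 118 and 114 CPM in hairpin 1, against 101, 122 and 99.4 CPM in control 1, and 158, 155, 157 and 169 CPM in hairpin 2, against 159, 154, 160.4 and 162 CPM in control 2. Groups overlapped in both sets, with log2 fold changes of 0.10 (SE 0.168, adjusted p = 0.92) and 0.01 (SE 0.049, adjusted p = 0.95). The hairpin 2 interval, 0.933-fold to 1.09-fold, was the narrowest of the 10.

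Cbx3 (ENSMUSG00000029836, chromosome 6, 51470360 to 51483704, plus strand) had 47.9, 56.3 and 54.3 CPM in hairpin 1, against 43.2, 61.1 and 35.4 CPM in control 1. In set 2 it had 23.2, 23.0, 32.6 and 23.4 CPM in hairpin 2, against 21.4, 24.4, 21.8 and 19.3 CPM in control 2, so that replicate 3 stood above the other 3 hairpin 2 libraries. The log2 fold changes were 0.18 (SE 0.248, adjusted p = 0.89) and 0.22 (SE 0.123, adjusted p = 0.36), with overlap in both sets. Without replicate 3 of hairpin 2 the second value was 0.10 (adjusted p = 0.68). Cbx3 shares 7.39% of its 50-base words with 13 other genes, foremost the pseudogene Cbx3-ps6, so its count is in part uncertain.

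Cbx5 (ENSMUSG00000009575, chromosome 15, 103191544 to 103239816, minus strand) had 182, 188 and 192 CPM in hairpin 1, against 175, 228 and 168 CPM in control 1. In set 2 it had 188, 206, 224 and 147 CPM in hairpin 2, against 177, 202, 195 and 147 CPM in control 2, with replicate 4 at the same low level in both groups. Groups overlapped in both sets, and the log2 fold changes were -0.02 (SE 0.187, adjusted p = 0.98) and 0.09 (SE 0.133, adjusted p = 0.79). Adding the replicate block left a hairpin 2 estimate of 0.08 with a smaller SE, 0.045 (adjusted p = 0.24).

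Trim28, the co-repressor KAP1 (ENSMUSG00000005566, chromosome 7, 12999114 to 13031035, plus strand), had 393, 681 and 746 CPM in hairpin 1, against 580.0, 692 and 891 CPM in control 1. Hairpin 1 replicate 1 was low, and the other libraries overlapped. The log2 fold change was -0.25 (SE 0.298, adjusted p = 0.88), and without that library it was -0.02 (adjusted p = 0.98). In set 2 Trim28 had 558, 583, 552 and 468 CPM in hairpin 2, against 545, 545, 512 and 515 CPM in control 2, which overlapped at a log2 fold change of 0.03 (SE 0.072, adjusted p = 0.87).

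**Figure D2:**
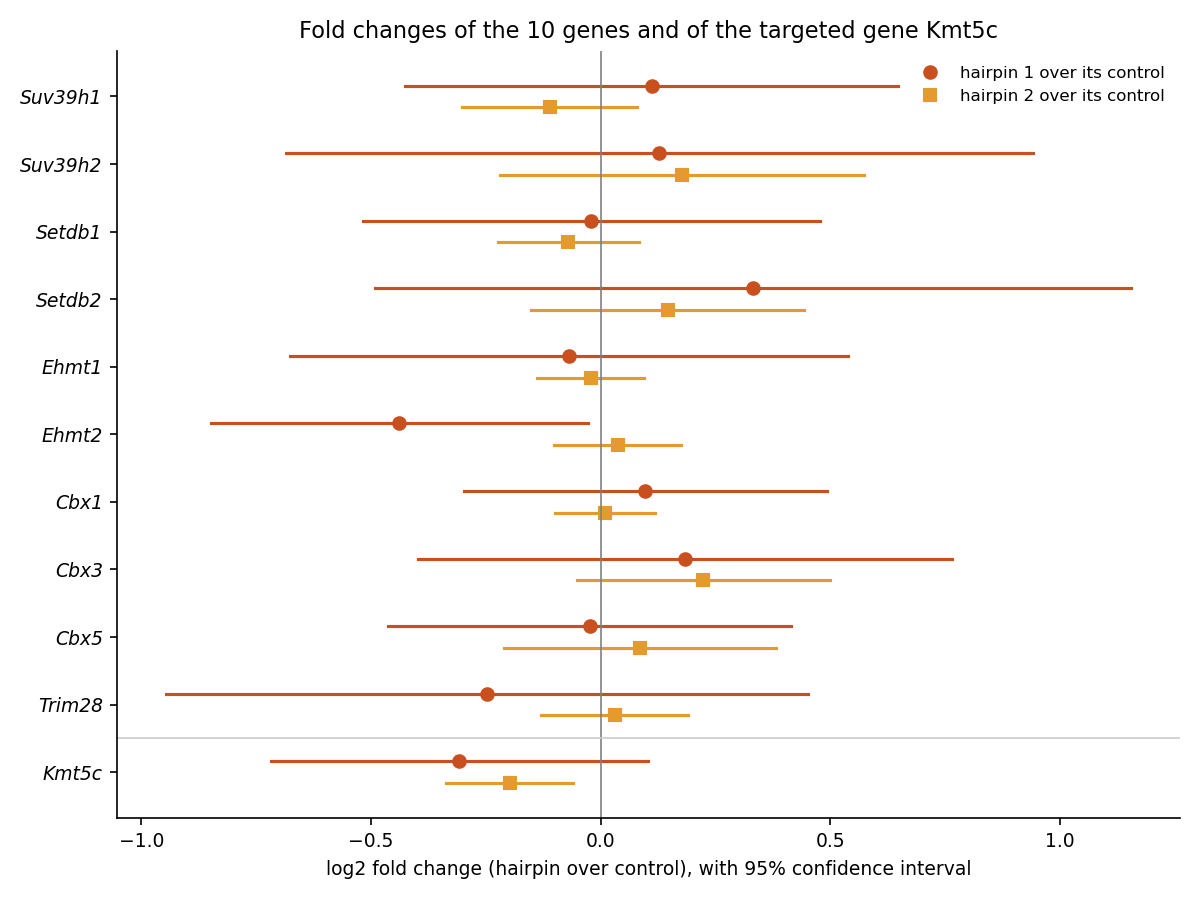
Log2 fold changes (x axis, hairpin over control) with 95% confidence intervals for the 10 genes and, under the line, the targeted gene Kmt5c, with hairpin 1 as circles and hairpin 2 as squares. Among the 10, the interval of Ehmt2 for hairpin 1 (-0.85 to -0.03) is the one that leaves out 0.

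The difference between the hairpin effects was tested as such over all 14 libraries. It passed for 0 of the 10 in edgeR, against a background of 62 of 15043 genes (0.412%), and had an unadjusted p under 0.05 for Ehmt2 alone. The share of all genes at that unadjusted p is not given here. For Ehmt2 the hairpin 1 effect minus the hairpin 2 effect was -0.47 (SE 0.150, 95% interval -0.79 to -0.14, unadjusted p = 0.0081, adjusted p = 0.22). The DESeq2 Wald test called this difference (-0.46, adjusted p = 0.022), and the adjusted p ran from 0.022 to 0.42 over the 19 alternatives, of which 1 passed. How many of all genes the Wald test called for the difference is not given here. Within each set it called more genes than edgeR, 16 against 0 with hairpin 1 and 1319 against 854 with hairpin 2. For the other 9 genes adjusted p-values were 0.69 to 0.99, and the widest interval, for Suv39h2, ran from -0.84 to 0.77.

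Levels of different genes were compared as CPM per kb of exon. The length covers all annotated exons of a gene, which need not be the length of the transcripts present. Trim28 was highest in each group, at 146 ± 45.2 in hairpin 1 and 173 ± 37.8 in control 1 (SD, n = 3 each), and at 129.9 ± 12.0 in hairpin 2 and 127 ± 4.31 in control 2 (SD, n = 4 each). Ehmt2, Cbx1 and Cbx5 came next, in that order, in all 4 groups. The order of Cbx1 and Cbx5 rests on the division by length. Cbx1 and Cbx5 overlapped in control 1, so there the order of the 2 is not beyond their spread. Setdb2 was last in each group, at 1.67 ± 0.295 in hairpin 1, 1.33 ± 0.330 in control 1, 2.62 ± 0.321 in hairpin 2 and 2.38 ± 0.349 CPM per kb in control 2. Between these ends, set 1 had Suv39h1 ahead of Ehmt1, Setdb1 and Cbx3, whereas set 2 had Ehmt1 and Setdb1 ahead of Suv39h1 and Cbx3. In set 2 the neighbours Cbx5 and Ehmt1, Cbx3 and Suv39h2, and Suv39h2 and Setdb2 overlapped in both groups. In set 1 Cbx3 and Setdb1 overlapped in both groups, Ehmt1 overlapped Cbx3 in hairpin 1 and Setdb1 in control 1, and Suv39h1 overlapped Ehmt1 in control 1.

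Within families, Cbx1 gave the largest share of the HP1 level per kb, with 47.6 ± 0.780% in hairpin 1 and 46.7 ± 2.11% in control 1 (SD, n = 3 each), and 59.7 ± 4.82% in hairpin 2 and 61.2 ± 3.51% in control 2 (SD, n = 4 each). Cbx5 gave 36.8 ± 0.683% in hairpin 1 and 39.1 ± 0.496% in control 1, and 33.6 ± 4.43% in hairpin 2 and 32.8 ± 3.21% in control 2. These shares rest on annotated exon lengths of 9006 bases for Cbx5 and 4273 for Cbx1. Before division by length, mean CPM was higher for Cbx5 than for Cbx1 in each group. It was 187 against 115 in hairpin 1, 190 against 107 in control 1, 191 against 160 in hairpin 2 and 180 against 159 in control 2. The lowest Cbx5 share of control 1, 38.6%, lay above the highest of hairpin 1, 37.3%, which was not tested. Suv39h1 made up 78.9 ± 5.04% of the SUV39H level in hairpin 1 and 79.3 ± 4.20% in control 1, and 70.8 ± 3.71% in hairpin 2 and 74.8 ± 2.64% in control 2. Setdb1 made up 82.9 ± 3.20% of the SETDB level in hairpin 1 and 86.2 ± 0.511% in control 1, and 83.9 ± 1.23% in hairpin 2 and 85.8 ± 1.11% in control 2. One member thus dominated each enzyme pair in all 4 groups.

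**Figure D3:**
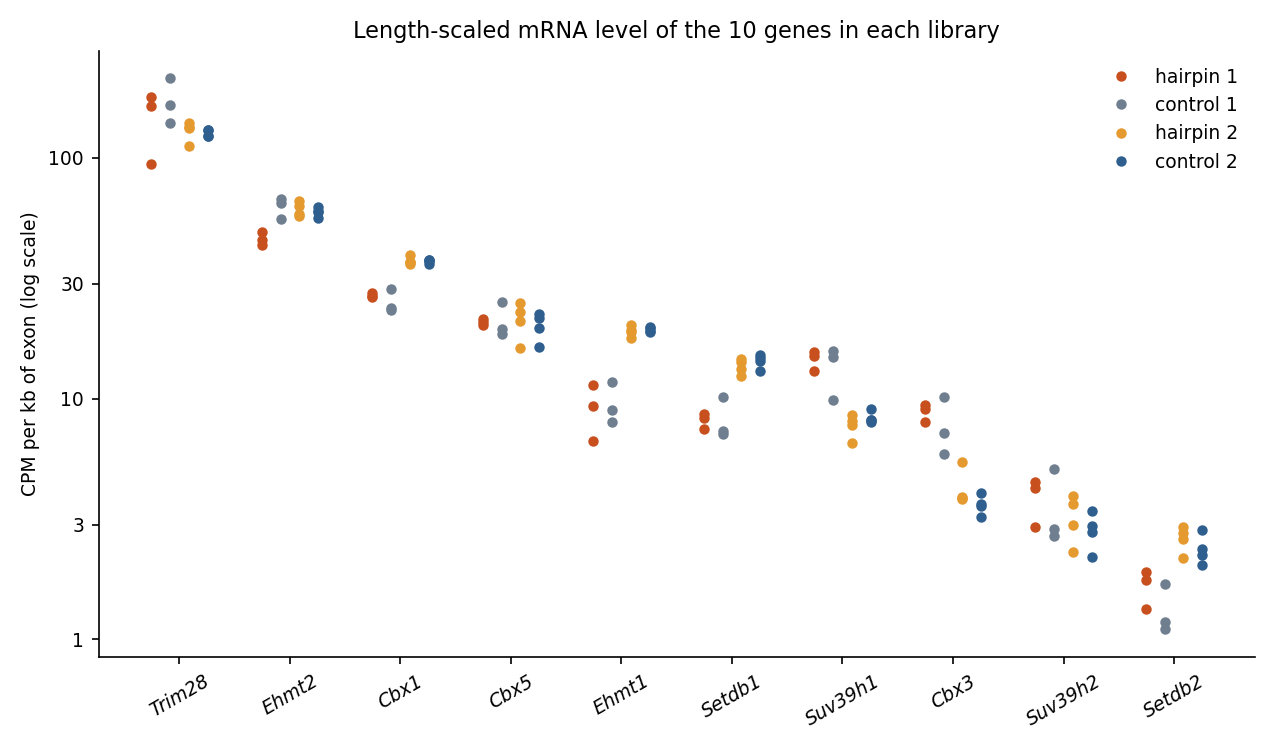
CPM per kb of exon (y axis, log scale) of the 10 genes (x axis) in each library, coloured by group. Trim28 lies highest and Setdb2 lowest in each group, and dots of a hairpin and its control lie close together. Ehmt1, Setdb1, Suv39h1, Cbx3, Cbx1 and Setdb2 lie apart between the sets, both between hairpin 1 and hairpin 2 and between control 1 and control 2. Trim28 lies apart between the controls but not between the hairpins, and Ehmt2 between the hairpins but not between the controls. These differences were not tested.

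Libraries that stood out did so for several of the 10 genes at once. In set 1, control 1 replicate 2 held the highest control value of 8 of the 10, against 36.5% of all genes tested. The spread, as a coefficient of variation, was smaller in hairpin 1 than in control 1 for 8 of the 10, against 34.5% of all genes. In set 2 it was smaller in hairpin 2 than in control 2 for 1 of the 10, against 31.5% of all genes. Control 1 replicate 3 held the lowest control value of 6 of the 10, against 33.8% of all genes. In set 2 the replicate 2 libraries were often high: hairpin 2 replicate 2 was the highest hairpin library for 5 of the 10, against 17.1% of all genes, and control 2 replicate 2 the highest control library for 6 of the 10, against 19.12%. The replicate 4 libraries were often low: hairpin 2 replicate 4 was the lowest hairpin library for 7 of the 10, against 38.3% of all genes, and control 2 replicate 4 the lowest control library for 6 of the 10, against 37.4%. For Suv39h2, Setdb1, Setdb2 and Cbx5, both replicate 4 libraries lay under all 6 others, which makes 4 of the 10 beside 17.9% of all genes. Cbx1 went the other way, with 169 CPM in hairpin 2 replicate 4 and 162 CPM in control 2 replicate 4, against 154 to 160.4 CPM in the 6 others.

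Proliferation genes were low in the same libraries. Of 12 proliferation genes, 10 had both replicate 4 libraries under all others. Mki67, a marker of cycling cells, had 226 CPM in hairpin 2 replicate 4 and 299 CPM in control 2 replicate 4, against 374 to 508 CPM in the other 6 libraries. Rrm2, a subunit of ribonucleotide reductase, had 66.3 CPM in hairpin 2 replicate 4 and 60.1 CPM in control 2 replicate 4, against 103 to 133 CPM in the others. Cbx5 had 147 CPM in both, against 177 to 224 CPM in the others. Replicate number accounted for 92.9% of the variation of log2 CPM of Cbx5 over the 8 libraries and the hairpin for 3.59%. In set 1 the hairpin accounted for 83.2% of that of Ehmt2 and the number for 7.59%. The 92.9% and the 83.2% were the largest shares of their kind among the 10 in their set. Replicate number had 3 degrees of freedom against 1 for the hairpin in set 2, and 2 against 1 in set 1. The shares are therefore not like for like. What set replicate 4 apart was not tested. Leaving out both of its libraries gave hairpin 2 log2 fold changes of 0.10 for Cbx5 (adjusted p = 0.29), 0.18 for Suv39h2 (adjusted p = 0.28), -0.08 for Setdb1 (adjusted p = 0.35) and 0.16 for Setdb2 (adjusted p = 0.34), and called 0 of the 10.

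**Figure D4:**
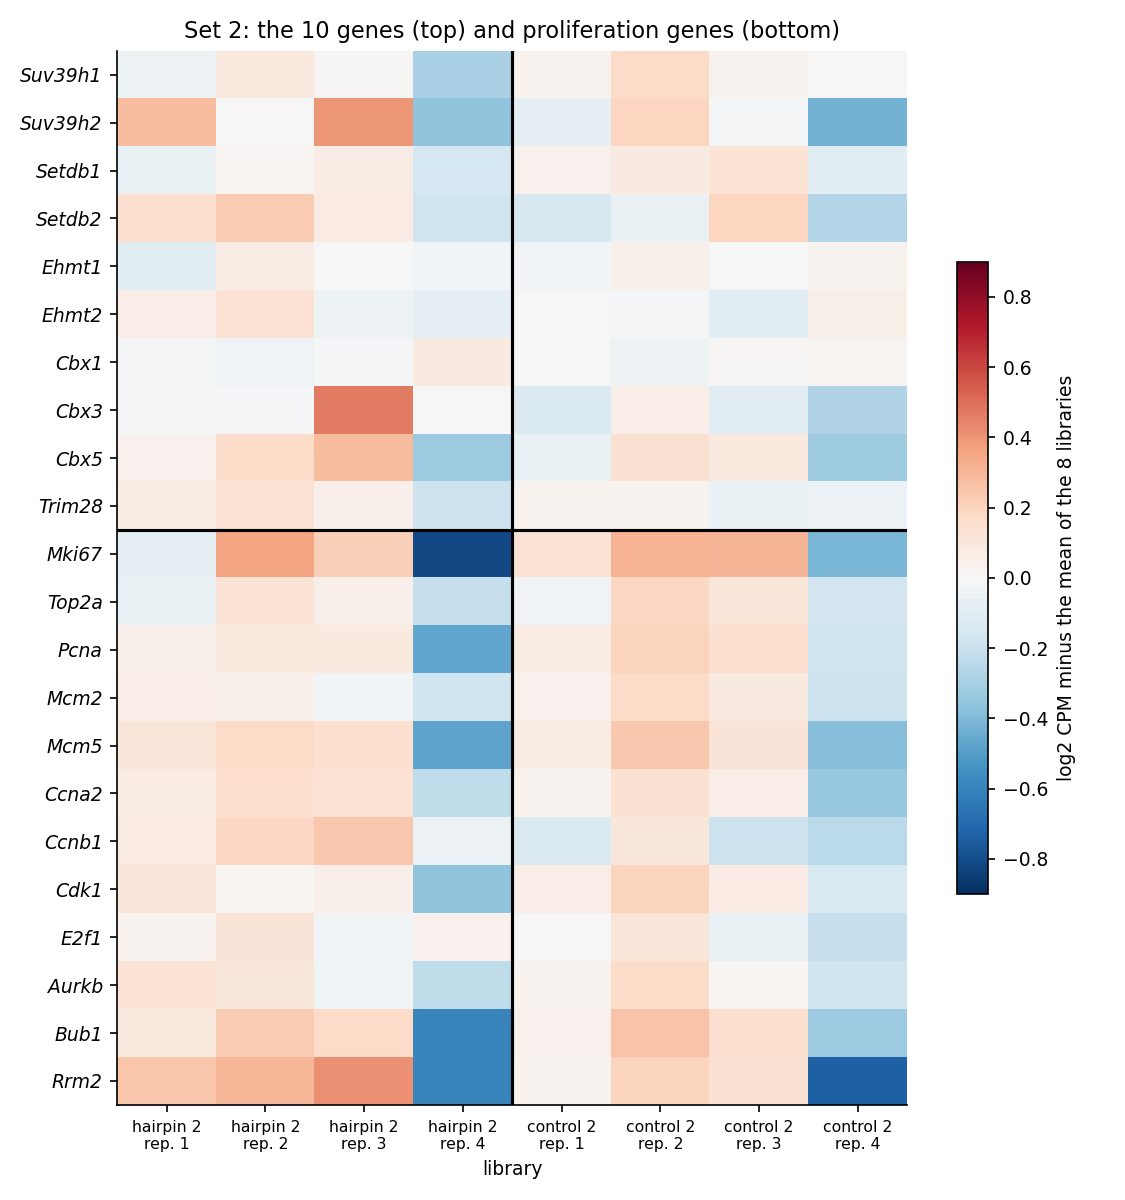
Log2 CPM minus the mean of the 8 set 2 libraries (colour) for the 10 genes (above the line) and 12 proliferation genes (below it), with hairpin 2 libraries in the left columns and control 2 libraries in the right ones. Replicate 4 values of both groups lie below 0 for 5 of the 10 genes (Suv39h2, Setdb1, Setdb2, Cbx5 and Trim28) and for 11 of the 12 proliferation genes, while Cbx1 and Ehmt1 stay near 0.

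Promoters are shown to compare the letters of Cbx5 and Suv39h2, low together in replicate 4, with those of Cbx3 and Suv39h1. RefSeq start windows (GRCm38.p6, 250 bases before to 50 after the start) were found for all 10 genes, 14 windows in all. They were searched on both strands for the E2F-type words TTTCCCGC, TTTCCCGG, TTTCGCGC, TTTCGCGG, TTTGCCGC, TTTGCCGG, TTTGGCGC and TTTGGCGG, which were chosen after the values and promoters had been seen, so the counts describe these windows and show no enrichment. E2F factors act at many genes of the cell cycle. A word was present in 3 of the 14 windows, beside 4.51% of 32851 windows of all genes. Those 3 windows, with the word in capitals, and the window of Suv39h2, in which no word was found, read 5′ to 3′ along the gene's strand as follows.
Cbx5, chr15:103239803-103240102, minus strand: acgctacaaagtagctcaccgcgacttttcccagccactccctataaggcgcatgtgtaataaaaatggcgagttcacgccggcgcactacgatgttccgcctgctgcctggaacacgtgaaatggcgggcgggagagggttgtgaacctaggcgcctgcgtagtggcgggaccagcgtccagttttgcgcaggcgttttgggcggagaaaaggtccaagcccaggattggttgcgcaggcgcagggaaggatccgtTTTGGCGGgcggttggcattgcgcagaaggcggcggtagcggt
Cbx3, chr6:51470366-51470665, plus strand: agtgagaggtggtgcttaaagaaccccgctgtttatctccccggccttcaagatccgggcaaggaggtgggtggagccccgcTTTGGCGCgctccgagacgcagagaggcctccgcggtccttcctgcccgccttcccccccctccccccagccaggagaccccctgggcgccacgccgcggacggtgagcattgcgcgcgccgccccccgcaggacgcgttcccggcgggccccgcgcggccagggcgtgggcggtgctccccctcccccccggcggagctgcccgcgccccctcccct
Suv39h1, chrX:8074312-8074611, minus strand: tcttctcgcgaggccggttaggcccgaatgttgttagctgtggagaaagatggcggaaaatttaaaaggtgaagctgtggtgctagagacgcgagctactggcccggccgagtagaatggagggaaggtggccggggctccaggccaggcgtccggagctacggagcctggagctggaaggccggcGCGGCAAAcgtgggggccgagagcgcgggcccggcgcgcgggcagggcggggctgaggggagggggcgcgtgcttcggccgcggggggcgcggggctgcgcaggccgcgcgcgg
Suv39h2, chr2:3474937-3475236, minus strand: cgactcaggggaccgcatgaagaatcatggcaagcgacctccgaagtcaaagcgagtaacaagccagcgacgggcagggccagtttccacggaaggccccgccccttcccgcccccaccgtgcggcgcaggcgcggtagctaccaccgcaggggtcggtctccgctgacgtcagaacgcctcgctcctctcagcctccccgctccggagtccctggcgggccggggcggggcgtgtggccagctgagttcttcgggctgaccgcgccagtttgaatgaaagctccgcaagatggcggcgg
In Suv39h1 the word reads on the opposite strand, as the reverse complement of TTTGCCGC. Of the 4 genes low in both replicate 4 libraries, Cbx5 alone held a word in a window. These genes and the words were both picked with the values known, so the tally is a description only. A word is a match of letters and not a shown binding site, and its absence says only that these letters are not in the window.

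For each of the 10, the gene with the most similar pattern was sought among 9432 genes, as Pearson's r of log2 CPM over the 14 libraries after subtracting each set's mean. These r values describe shared library differences, replicate 4 and hairpin 1 replicate 1 included, and carry no test. Suv39h2 was most like Brip1 (r = 0.95), a helicase of DNA repair, Suv39h1 like Kpna2 (r = 0.85), a nuclear import receptor, and Cbx5 like Mdm1 (r = 0.93). Setdb1 was most like Bicd1 (r = 0.94), Setdb2 like Dek (r = 0.93), a chromatin protein, Cbx3 like Ddias (r = 0.89) and Cbx1 like Pigw (r = 0.95). Trim28 was most like Dpysl2 (r = 0.97), Ehmt2 like Epn1 (r = 0.94) and Ehmt1 like Znfx1 (r = 0.93). For Ehmt1 and Ehmt2 the likeness rested on set 1, with r = 0.95 and 0.98 there over 6 libraries but 0.36 and 0.52 in set 2 over 8. Among the 10 themselves, Suv39h2 and Cbx5 had r = 0.90 over the 8 libraries of set 2, and Cbx1 and Cbx3 r = 0.96 over the 6 of set 1. Cbx1 ran against Suv39h1 (r = -0.92) and Trim28 (r = -0.91) in set 2, within a narrow range of 154 to 169 CPM.

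Of 33 partner and antagonist genes in 6 lists, 32 were tested in each set. The 32 include Kmt5c, the targeted gene itself, which had an unadjusted edgeR p of 0.0093 with hairpin 2 and is counted there below. With hairpin 1, 0 were called in edgeR, with 2 at an unadjusted p under 0.05, against 733 of 13540 genes. Their median log2 fold change was 0.23, beside 0.03 over all genes. Without hairpin 1 replicate 1 the median was -0.0081, beside -0.02 over all genes. With hairpin 2, 1 rose and 0 fell, with 9 at an unadjusted p under 0.05, against 2793 of 14126 genes, and the median of the 32 was 0.03. That 1 in 32 stands beside 2.04% of all genes called higher with hairpin 2. It was Phf2, a member of the H3K9 demethylase family that includes Kdm7a. Phf2 had 173, 164, 167 and 169 CPM in hairpin 2, against 140.5, 139, 142 and 136 CPM in control 2. Each hairpin library lay above each control library, with a log2 fold change of 0.27 (SE 0.046, adjusted p = 0.0066).

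Phf2 was called in 14 of 15 alternatives, with an adjusted p of 4.0e-07 to 0.034, and not in the model of all 14 libraries (0.27, adjusted p = 1.0). In set 1 it had 82.5, 50.9 and 42.1 CPM in hairpin 1, against 36.3, 36.7 and 22.3 CPM in control 1. These groups did not overlap either, and the log2 fold change was 0.88 (SE 0.329, unadjusted p = 0.031, adjusted p = 0.80), or 0.55 (adjusted p = 0.32) without hairpin 1 replicate 1. Phf2 lies on chromosome 13, whose 364 genes at a mean of 5 CPM or more had a median log2 fold change of 0.19 for hairpin 2, at 0.17 to 0.19 in each of the 4 hairpin libraries. For hairpin 1 the chromosome 13 median was 0.14. The part of this shift in the Phf2 value was not tested. None of the 10 genes lies on chromosome 5, 12 or 13, whose medians for hairpin 2 were 0.12, 0.13 and 0.19, while those of the other chromosomes were -0.03 to 0.05.

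HUSH complex genes, which act with SETDB1 at retroelements, had no call with either hairpin. Fam208a, now also called Tasor, had 33.3, 37.6, 43.8 and 41.2 CPM in hairpin 2, against 29.3, 27.4, 36.0 and 31.0 CPM in control 2 (log2 fold change 0.33, adjusted p = 0.11), and it passed with the replicate block (0.34, adjusted p = 0.0028). In set 1 it had 1.01, 8.20 and 6.31 CPM in hairpin 1, against 7.56, 13.6 and 7.96 CPM in control 1 (-0.91, adjusted p = 0.82). Fam208a lies on chromosome 14, whose genes were low in hairpin 1 replicate 1 as given beside Setdb2, and without that library its value was -0.42 (adjusted p = 0.58). Mphosph8, the chromodomain subunit, was at -0.15 for hairpin 2 (adjusted p = 0.21), and Pphln1, the third subunit, at 0.44 for hairpin 1 (adjusted p = 0.80). The TRIM28 relatives Trim24 and Trim33 were at 0.29 and 0.01 for hairpin 1 and at -0.07 and 0.04 for hairpin 2, with adjusted p-values of 0.55 to 0.99.

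Among the EHMT partners, Cdyl, a chromodomain co-repressor, had 39.2, 37.3, 46.5 and 36.3 CPM in hairpin 2, against 32.3, 33.1, 33.9 and 29.9 CPM in control 2. All hairpin libraries lay above all control libraries, at a log2 fold change of 0.30 (SE 0.087, adjusted p = 0.079, and 0.0054 with the replicate block), and Cdyl too lies on chromosome 13. Zfp644, a zinc finger partner of the EHMT enzymes, was at 0.21 for hairpin 2 (adjusted p = 0.30, and 0.018 with the block). Zfp644 lies on chromosome 5, whose median log2 fold change for hairpin 2 was 0.12. The part of the chromosome-wide shifts in the Cdyl and Zfp644 values was not tested. In set 1 Cdyl had 28.8, 20.9 and 21.1 CPM in hairpin 1, against 20.6, 18.2 and 13.8 CPM in control 1. The log2 fold change was 0.43 (adjusted p = 0.80), or 0.26 (adjusted p = 0.64) without hairpin 1 replicate 1. These groups did not overlap either, beside 12.8% of all genes without overlap in set 1 and 15.3% in set 2. Wiz, which anchors the EHMT heterodimer, was at -0.17 for hairpin 1 (adjusted p = 0.87).

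Of 8 genes for HP1-binding proteins, 0 were called in edgeR with either hairpin. At an unadjusted p under 0.05 there was 1 for hairpin 1, against 733 of 13540 genes, and 2 for hairpin 2, against 2793 of 14126. Chaf1a, the large subunit of the chromatin assembly factor that carries HP1, had 65.8, 57.9 and 55.3 CPM in hairpin 1, against 71.0, 102 and 80.4 CPM in control 1 (-0.50, unadjusted p = 0.042, adjusted p = 0.80). Incenp, of the chromosomal passenger complex, had 199, 180.3 and 188 CPM in hairpin 1, against 224, 235 and 347 CPM in control 1 (-0.50, adjusted p = 0.80). Neither pair overlapped, as for Ehmt2, and Daxx did not overlap either (-0.39, adjusted p = 0.80). That makes 3 of the 8, all lower with hairpin 1, beside 12.8% of all genes without overlap in either direction. Lbr, the lamin B receptor that tethers HP1 to the nuclear envelope, was at -0.20 for hairpin 2 (adjusted p = 0.21, and 0.0096 with the block). Adnp, which joins HP1 in a remodelling complex, was at 0.75 for hairpin 2 (adjusted p = 0.22), with 4.41, 4.30, 10.9 and 7.22 CPM in hairpin 2, against 4.91, 4.06, 3.89 and 2.53 CPM in control 2.

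H3K9 demethylases, which remove the mark, lay above 0 for 9 of 10 tested genes with hairpin 1, with a median log2 fold change of 0.49, beside 52.5% of all genes above 0. Hairpin 1 replicate 1, the library with high Cd68 and Cdh5, held the highest value of all 6 set 1 libraries for 9 of these 10 genes, against 30.7% of all genes. Without it 6 of the 10 lay above 0, with a median of 0.07, beside 48.0% of all genes. With hairpin 2, 7 of 10 lay above 0, with a median of 0.08, beside 7218 of 14126 genes above 0. Beside Phf2, Kdm4c was named for hairpin 1, at 36.4, 20.6 and 15.1 CPM in hairpin 1, against 13.9, 16.6 and 8.49 CPM in control 1 (0.89, adjusted p = 0.80, or 0.45 with an adjusted p of 0.51 without hairpin 1 replicate 1). Among H4K20 methyltransferases, Kmt5a, the monomethyltransferase, was at 0.15 for hairpin 2 (adjusted p = 0.25). Kmt5a lies on chromosome 5, whose median for hairpin 2 was 0.12, and the part of that shift in its value was not tested. Kmt5b, the close relative of the targeted gene, had log2 fold changes of -0.08 in set 1 (adjusted p = 0.96) and 0.14 in set 2 (adjusted p = 0.43, or 0.043 under the block). With the replicate block, which called 20.4% of all genes with hairpin 2, 8 of the 32 partner genes were called higher (Fam208a, Zfp644, Cdyl, Phf2, Kdm4a, Kdm4b, Kdm7a and Kmt5b) and 2 lower (Lbr and Kmt5c), and 0 of the 10 H3K9 and HP1 genes were called. Their smallest adjusted p with the block was 0.14, for Cbx3.

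**Figure D5:**
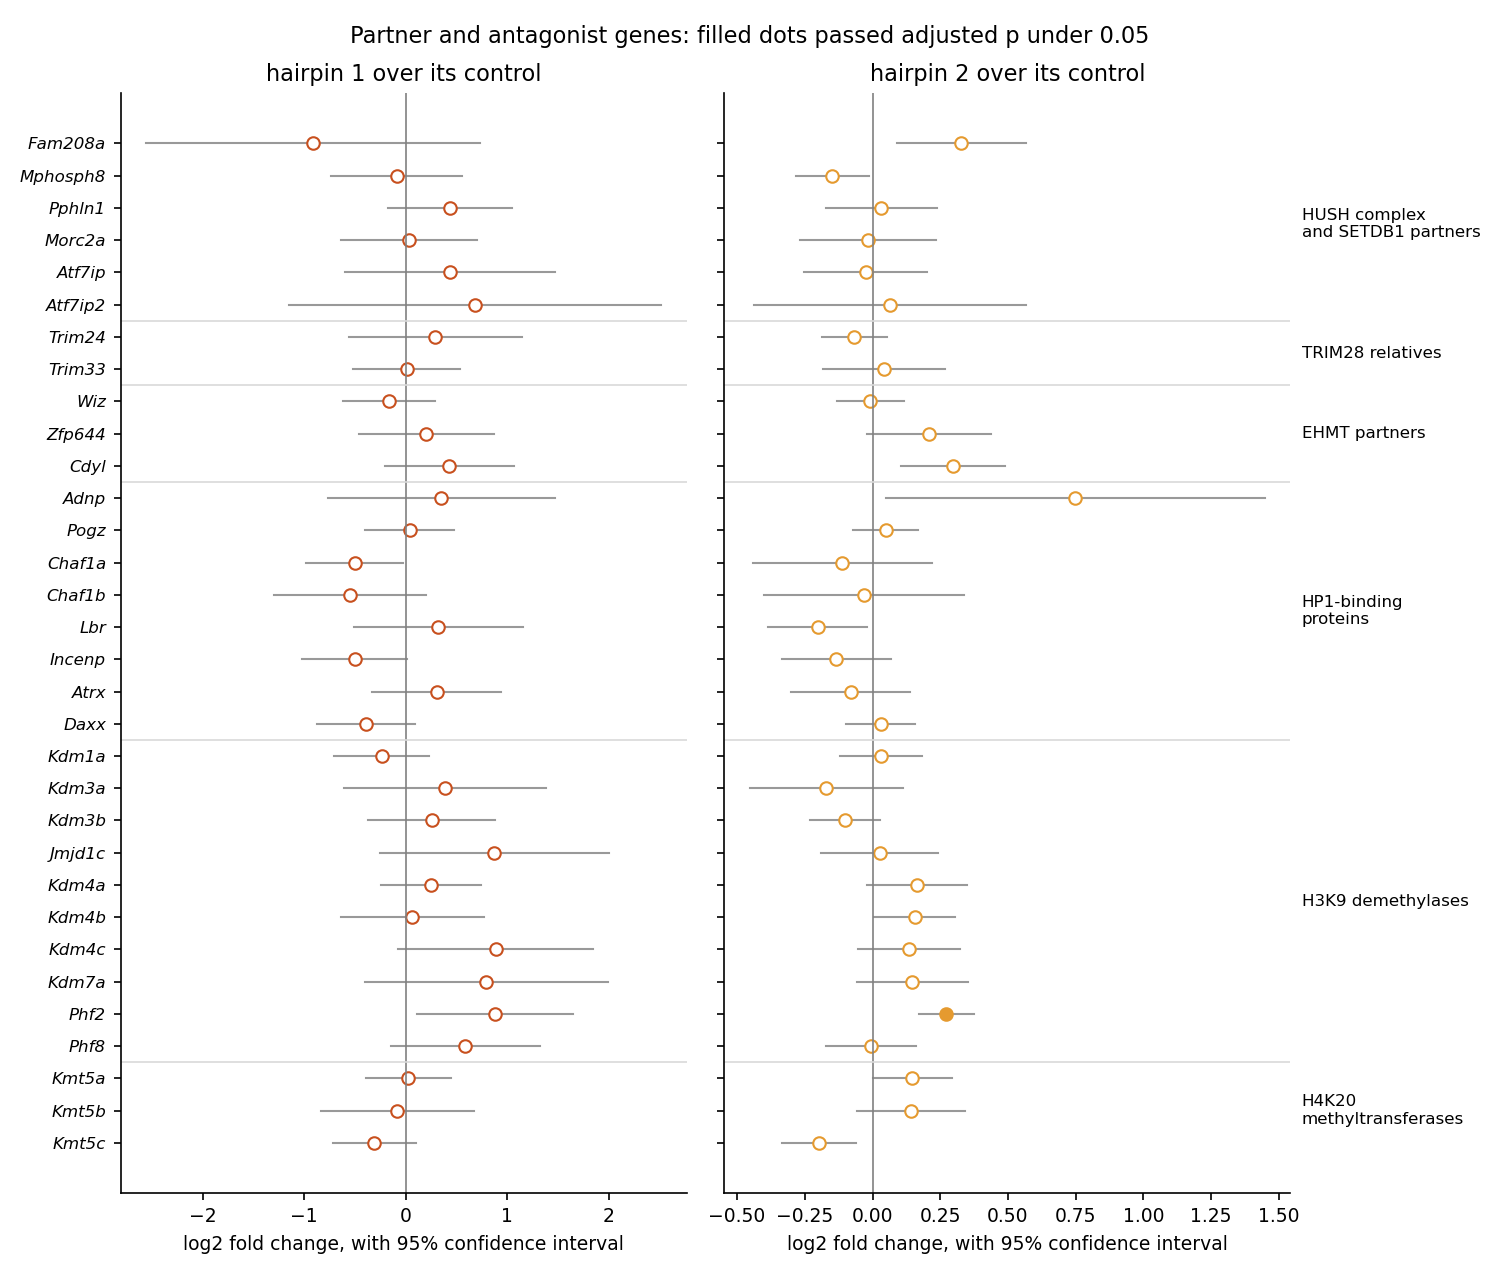
Log2 fold changes (x axis, with 95% confidence intervals, on a separate scale for each hairpin) of the 32 tested partner and antagonist genes, grouped by list, for hairpin 1 (left) and hairpin 2 (right). The 1 filled dot, Phf2 with hairpin 2 (0.27), passed an adjusted p under 0.05.

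Germline genes, many of which H3K9 methylation keeps silent outside the germline, stayed near the limit of detection in set 1. Of 14 such genes, 13 were at or under 0.393 CPM in every set 1 library. The 1 that was tested, Sycp1 of the synaptonemal complex, had 3.20, 1.46 and 1.11 CPM in hairpin 1, against 0.815, 3.66 and 0.937 CPM in control 1 (log2 fold change 0.10, adjusted p = 0.98). The set 2 files list 1 of the 14, Ddx4, an RNA helicase of germ cells, and the other 13 are not analysed here in set 2. Ddx4 had 1.43, 1.70, 1.51 and 2.24 CPM in hairpin 2, against 1.45, 2.11, 1.41 and 2.09 CPM in control 2 (log2 fold change -0.05, adjusted p = 0.94).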

How the data were processed

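Per the labels' protocols, poly(A) mRNA went into libraries that keep strand. What the authors deposited are raw counts, 1 whole number for each gene, in 1 file for each library. The submitters' processing notes name bcl2fastq 2.20, FastQC, STAR, featureCounts, DESeq2 and GRCm38, while the strand mode of counting and all other versions and settings are items not given in the sources used here. Files of set 1 list 55421 genes and those of set 2 list 17490, 17487 of them shared. GENCODE M21 (GRCm38) gave symbols and positions for 55154 genes of set 1 and 17464 of set 2.

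The quasi-likelihood test of edgeR 4.0.16 (R 4.3.3) was fitted to each set by itself, after TMM scaling and filterByExpr. Its p-values were adjusted by Benjamini-Hochberg over all genes tested, and 0.05 was the threshold. Unless another tool is named, adjusted p-values are from this test. The difference between hairpins was fitted over 14 libraries in 4 groups. CPM use TMM-scaled totals, and CPM per kb divide by the summed exon length in GENCODE M21. Counting words of 50 bases shared between transcripts marked genes with near-identical copies. The fits were tested on simulated counts with large known fold changes, the same spread for every gene and no differences between replicates. Changes as small as those of the members were not simulated.

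The members and lists were chosen with earlier results of these data known. All 10 members and Kmt5c were named, and from each list the genes past the threshold (up to 4) or else the 2 with the smallest p. Fam208a stands for Tasor, its symbol in GENCODE M21 being the older one. Kdm4a, Kdm4b, Kdm7a, Rrm2 and the marker genes were named after their values were seen.

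Replicate numbers were checked for pairing by correlating same-numbered libraries' deviations from the group means. In set 2 these were 0.32, 0.21, 0.33 and 0.66, each above a limit of 0.1. The labels give no statement on pairs, and the main fit took no block. Its p-values therefore ignore any pairing, which entered through the replicate block alone. Among replicates 1 to 3, libraries of different numbers correlated at 0.15 to 0.27, so passing the limit does not by itself show pairing.

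The alternatives tried were size factors or the Wald test of DESeq2 1.42.0, no low-count filter, voom with quality weights (limma 3.58.1), a replicate block, 1 model of all 14 libraries, and fits without each library or without both replicate 4 libraries of set 2. The promoter word search was added after the values were seen. Tables and figures used Python 3.11.15, pandas 2.3.3 and matplotlib 3.10.9.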

Additional observations from a re-analysis of the deposited data

Results flagged for a closer look

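Among 22 groups of 4 libraries (the 10 genes and Kmt5c in hairpin 2 and in control 2), 2 held 1 library far from the others by Dixon's criterion at the 95% level, and chance marks about 1 group in 20. Cbx3 had 32.6 CPM in hairpin 2 replicate 3, the library with the lowest total, against 23.0 to 23.4 CPM in the other 3 hairpin 2 libraries, and Suv39h1 had 47.8 CPM in control 2 replicate 2, against 42.3 to 43.1 CPM in the other 3 control 2 libraries. The part of depth in either value was not tested.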

How the results depend on the processing

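With edgeR on TMM, 0 of the 10 genes passed with either hairpin, and every alternative run gave 0 as well. For the difference between hairpins every alternative gave 0 except the DESeq2 Wald test, which called 1 (Ehmt2), with its count over all genes not given here. Of 289 single values for the 10 genes under alternatives, 269 kept direction and side of the threshold, 1 passed in addition and 19 changed sign, none of these at more than 0.16 in size, and no changed value passed the threshold. The cause of each change was not tested.

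Counts of all genes depended more on the test. For hairpin 1 (0 in edgeR) they were 16 by the DESeq2 Wald test, 8 by voom and 187 in the model of all 14 libraries, and 0 to 1 without 1 library, the 1 being without hairpin 1 replicate 1. For hairpin 2 (854) they were 1319 by DESeq2, 2466 by voom, 2880 with the replicate block, 120 in the model of all 14 libraries and 2396 without both replicate 4 libraries. Leaving out 1 library gave 453 to 1409, the extremes without control 2 replicate 2 and without hairpin 2 replicate 4. Leaving out replicate 1, 2 or 3 of hairpin 2 gave 526, 473 and 564, and leaving out replicate 1 of control 2 gave 516.

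For hairpin 1, log2 fold changes turned positive for Setdb1 by DESeq2 (0.0041) and voom (0.0820), and by voom for Cbx5 (0.0582) and Trim28 (0.0055). They turned negative for Trim24 by voom (-0.17) and for Trim33 without a filter (-0.0088), by voom (-0.0652) and with the replicate block (-0.0120). For hairpin 2, Cbx1 turned negative by voom (-0.00087) and without both replicate 4 libraries (-0.0080).

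Leaving out 1 library at a time turned the sign of these genes in part of the fits. The hairpin 1 ranges were -0.0426 to 0.24 for Suv39h1, -0.0174 to 0.49 for Suv39h2, -0.0892 to 0.16 for Setdb1, -0.26 to 0.15 for Ehmt1, -0.0857 to 0.13 for Cbx5, -0.17 to 0.53 for Trim24, -0.18 to 0.20 for Trim33, -0.45 to 0.15 for Kmt5b and -0.49 to 1.13 for Sycp1. The hairpin 2 ranges were -0.0491 to 0.0066 for Ehmt1, -0.00032 to 0.0700 for Ehmt2, -0.0159 to 0.0256 for Cbx1, -0.00045 to 0.19 for Cbx5, -0.0074 to 0.0938 for Trim28, -0.0307 to 0.11 for Trim33 and -0.18 to 0.0482 for Ddx4.

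In set 1 same-numbered libraries correlated at 0.25, -0.0038 and 0.29, so 1 of 3 missed the limit of 0.1. The main fit took no block there either. Libraries of different numbers correlated at -0.26 to 0.17 there, and the replicate block called 0 genes. In set 2 the replicate block changed no call among the 10 genes, and it changed calls of the partner genes given above and of Ccnb1 (0.22, adjusted p = 0.035) and Rrm2 (0.18, adjusted p = 0.015). Ccnb1 lies on chromosome 13 and Rrm2 on chromosome 12, whose median log2 fold changes for hairpin 2 were 0.19 and 0.13. The part of these shifts in the Ccnb1 and Rrm2 values was not tested. With 3 libraries a group, hairpin 1 intervals were wide for some of the 10 genes, from 0.711-fold to 2.23-fold for Setdb2, against 0.814-fold to 1.41-fold for Cbx1.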
